A study of Mus musculus with 6 samples.

Results

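The 8 genes described here, Tnfaip3, Tnip1, Tnip3, Traf1, Birc3, Ier3, Tnfaip8 and Tnfaip2, were taken by name as genes of feedback on tumour necrosis factor (TNF) signalling and of cell survival. The choice was made with earlier results of these data known. Each was represented by the probe set of its own symbol with the highest mean, and all 8 were measured, out of 19926 genes in all. The cells were primary astrocytes, the star-shaped glia that support neurons, from C57BL/6J mice. Of 6 samples of cultured cells on 6 Affymetrix Mouse Gene 1.0 ST arrays, 3 were controls and 3 had received TNF at 50 ng/mL, and both groups were labelled 24 h. The labels used here do not give the animals' age or say whether replicates were separate cultures or animals, so a p-value here speaks of the spread among these 6 samples alone, and that spread may be technical. Values are log2 signals and differences are TNF minus control, so a difference of 1 is a doubling of signal.

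TNF that binds its receptor Tnfrsf1a gathers adaptor proteins and the ubiquitin ligases of the cIAP group, which build the ubiquitin chains that start NF-kB signalling and hold back cell death. NF-kB then switches on genes that feed back on the same route. Among these are enzymes that cut or edit ubiquitin chains, proteins that guide them there, further ligases and adaptors, and proteins that change a cell's response to death signals. In astrocytes this route accompanies the inflammatory response of the injured brain.

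The cultures carried the transcripts of their labelled cell type. Of 12 astrocyte markers, 10 lay above the median gene, all but S100b and Gjb6, and the list's mean log2 signal per array was 10.44 to 10.73 in controls and 10.05 to 10.32 with TNF. Of these 12, 4 fell (Glul, Aldoc, Gja1 and Fgfr3) and none rose in a limma fit across all genes, and 5 were lower and 2 higher at an unadjusted p under 0.05. With the replicate number as a block, 7 were lower and 2, Aqp4 and Slc1a2, were higher. In a bulk sample, fewer cells of a type and less RNA per cell cannot be told apart. The arrays numbered 3 stood apart from the rest: over the genes tested their lower quartiles were 6.27 and 6.33 against 6.01 to 6.09, and their upper quartiles 9.17 and 9.16 against 9.29 to 9.33. Results are therefore also given without them. Control and TNF arrays of the same number deviated together, and their differences are given as 3 pairs.

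The stretch around the start of a gene is shown for 4 of the genes to set matches beside the values given below: Tnfaip3 and Tnip1, which rose and hold a match to the NF-kB consensus (the kB site), Tnip3, which holds one and was not called, and Birc3, which rose and holds none. The windows are RefSeq's on GRCm38.p6, from 250 bases before to 50 bases after the start, 5′ to 3′ on the gene's strand, with matches to the consensus on either strand in capitals. They lie at chr10:19015361-19015660 (Tnfaip3, minus strand), chr11:54962891-54963190 (Tnip1, minus strand), chr6:65590148-65590447 (Tnip3, plus strand) and chr9:7873121-7873420 (Birc3, minus strand).
Tnfaip3: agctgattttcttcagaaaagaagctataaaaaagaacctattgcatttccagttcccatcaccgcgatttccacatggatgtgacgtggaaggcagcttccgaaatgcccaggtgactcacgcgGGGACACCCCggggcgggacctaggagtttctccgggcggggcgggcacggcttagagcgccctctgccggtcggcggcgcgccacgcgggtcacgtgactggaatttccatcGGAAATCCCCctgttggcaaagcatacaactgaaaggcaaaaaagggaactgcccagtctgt
Tnip1: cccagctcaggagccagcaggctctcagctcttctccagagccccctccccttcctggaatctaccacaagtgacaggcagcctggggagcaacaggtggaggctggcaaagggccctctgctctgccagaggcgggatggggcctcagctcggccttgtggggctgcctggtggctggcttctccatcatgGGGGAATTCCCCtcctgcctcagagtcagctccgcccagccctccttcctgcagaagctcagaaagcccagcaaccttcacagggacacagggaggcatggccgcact
Tnip3: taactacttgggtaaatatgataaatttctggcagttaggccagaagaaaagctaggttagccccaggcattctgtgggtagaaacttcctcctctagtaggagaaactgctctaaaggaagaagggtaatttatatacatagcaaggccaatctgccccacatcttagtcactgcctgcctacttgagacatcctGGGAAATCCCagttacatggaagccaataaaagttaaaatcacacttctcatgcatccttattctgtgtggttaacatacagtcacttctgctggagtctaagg
Birc3: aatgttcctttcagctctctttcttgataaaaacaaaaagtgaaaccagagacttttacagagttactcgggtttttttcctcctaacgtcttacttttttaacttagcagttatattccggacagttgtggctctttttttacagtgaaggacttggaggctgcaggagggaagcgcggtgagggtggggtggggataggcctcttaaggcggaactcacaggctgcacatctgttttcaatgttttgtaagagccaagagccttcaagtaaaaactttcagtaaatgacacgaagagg

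Windows of 7 of the 8 genes, all but Tnfaip8, were searched, and these were 8 windows because Tnfaip3 has 2. The NF-kB consensus was held by 5 of the 7 genes, each in 1 window. Counted by window and not by gene, 8.46% of all 32851 windows of this length held it. The Tnfaip3 window held it at 2 places, 125 to 116 and 12 to 3 bases before the start. A second Tnfaip3 window, at a start further downstream, held none. The Tnip1 window held overlapping matches on both strands in the run from 58 to 47 bases before the start, and the Tnip3 window 1 place from 54 to 45 bases before it. In Ier3 the match GGAGTTCCCC lay 92 to 83 bases before the start, and in Tnfaip2 the match GGAGGGCCCC lay 24 to 15 bases before it. The windows of Birc3 and Traf1 held none. A related form, GGGNNNTTCC on either strand, was present in 2 genes, Tnfaip3 and Tnip1, and in 5.56% of all windows. It is not a subset of the consensus, which it overlaps at 3 of the 5 places it was found in these genes. The TATA box core TATAAA on either strand was present in Tnfaip3 and Tnip3 and in 13.6% of all windows. These matches describe letters in a short window, and binding was not measured.

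TNF-treated astrocytes carried far more transcript of 5 of the 8 genes. Tnfaip2, Tnfaip3, Birc3, Tnip1 and Ier3 rose 15.5-fold, 10.7-fold, 8.26-fold, 4.68-fold and 3.17-fold. The other 3, Tnip3, Tnfaip8 and Traf1, did not pass the test. A rise was therefore called for 5 of the 8, and a missed threshold does not show that a gene did not respond. Tnip3 was called higher in some alternative fits, given below. A call is an adjusted p under 0.05 in the limma fit (Benjamini-Hochberg, all 19926 genes), and that fit called 3.87% of all genes higher and 3.33% lower. No member was called lower, and at an unadjusted p under 0.05 there were 6 higher and 0 lower. The members' median log2 difference was 1.95, against -0.003 over all genes. Because the members were chosen with earlier results of these data known, these counts and medians describe the 8 genes and do not test them as a group.

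**Figure D1:**
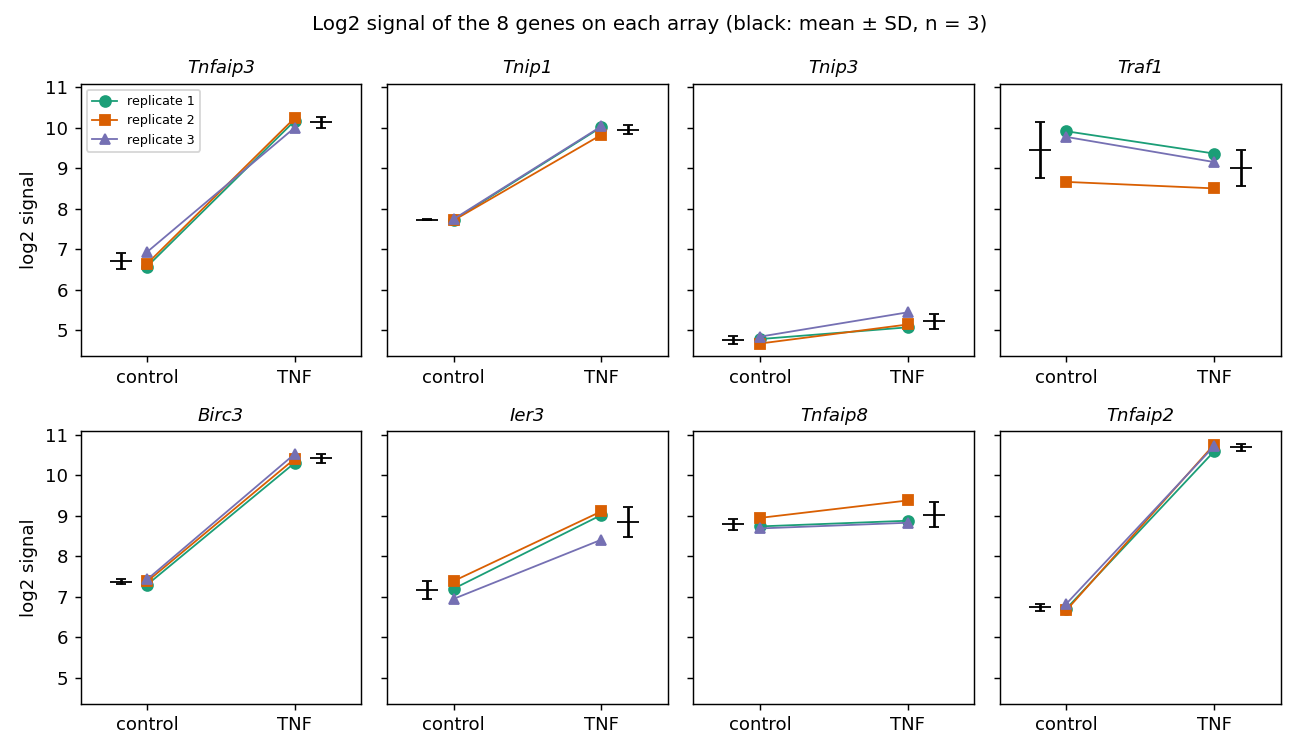
Log2 signal (y axis) of each of the 8 genes in control and TNF cultures (x axis), with a line joining the 2 arrays of each replicate number and the mean ± SD in black (n = 3). The lines of Tnfaip3, Tnip1, Birc3, Ier3 and Tnfaip2 climb steeply and lie close together, while those of Traf1 are far apart, with replicate 2 lowest in both groups.

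All 3 TNF arrays lay above all 3 controls for 6 members, the 5 that were called and Tnip3, where 12.3% of all genes showed this. Within pairs, 7 members were higher with TNF in all 3, as were 25.7% of all genes, and Traf1 was lower in all 3, as were 26.9%. With the replicate number as a block, 6 members were called higher and 1 lower, where that fit called 9.73% of all genes higher and 11.8% lower. The 2 additional calls were Tnip3 and Traf1. Both were lost when the arrays numbered 3 were also left out of the blocked fit, with limma adjusted p = 0.0602 for Tnip3 and adjusted p = 0.12 for Traf1.

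Tnfaip3 encodes A20, an enzyme that removes and edits ubiquitin chains on signalling proteins below the TNF receptor and so limits NF-kB activity. Its log2 signal was 6.57, 6.64 and 6.93 in controls 1 to 3 and 10.17, 10.24 and 9.995 with TNF. The groups lay far apart, with the highest control more than 3 units below the lowest TNF array. The means were 6.71 ± 0.19 and 10.13 ± 0.13 (SD, n = 3 per group), a log2 difference of 3.42 (SE 0.14, limma adjusted p = 2.03e-05), with a 95% interval of 8.62-fold to 13.3-fold. The difference was 3.6 in pairs 1 and 2 and 3.06 in pair 3, whose control was the highest and whose TNF array was the lowest of its group. Without the arrays numbered 3 it was 3.6 (adjusted p = 0.00119). Tnfaip3 ranked 46 among the 19926 genes by the size of its increase.

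Tnip1 and Tnip3 encode the relatives ABIN-1 and ABIN-3, which bind A20, and ABIN-1 restrains NF-kB signalling. The values of the 2 genes differed in size. Tnip1 was 7.72, 7.71 and 7.74 in controls 1 to 3 and 10.01, 9.82 and 10.03 with TNF. Its controls were nearly equal, with an SD of 0.02, and every TNF array was about 2 units above them. The log2 difference was 2.23 (SE 0.11, n = 3 per group, limma adjusted p = 4.24e-05), with pair differences of 2.28, 2.11 and 2.29. It was 2.20 without the arrays numbered 3 (limma adjusted p = 0.00361). Tnip3 was 4.78, 4.67 and 4.84 in controls and 5.07, 5.14 and 5.44 with TNF, and its mean signal was low, with 9.16% of genes below it. The 2 groups of Tnip3 did not overlap, but the gap between the highest control and the lowest TNF array was narrow.

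The log2 difference of Tnip3 was 0.46 (SE 0.13, n = 3 per group, limma adjusted p = 0.0877), with a 95% interval of 0.15 to 0.76, or 1.11-fold to 1.69-fold. The pair differences were 0.29, 0.48 and 0.59. Leaving out the arrays numbered 3 gave a difference of 0.39 (limma adjusted p = 0.15, no block). With the replicate block Tnip3 was called higher (adjusted p = 0.0106). It was also called after quantile normalization of the genes tested (adjusted p = 0.021) and with array weights (adjusted p = 0.0493), and over all alternatives its adjusted p ran from 0.00436 to 0.248. The Tnip3 interval lay wholly below that of Tnip1, 3.94-fold to 5.56-fold. The difference between the responses of these 2 genes was not itself tested. Both promoter windows printed above hold an NF-kB consensus match, 4 in Tnip1 and 2 in Tnip3 with each strand counted. The form GGGNNNTTCC was found in the Tnip1 window and not in that of Tnip3. Whether these matches bear on the responses was not tested.

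**Figure D2:**
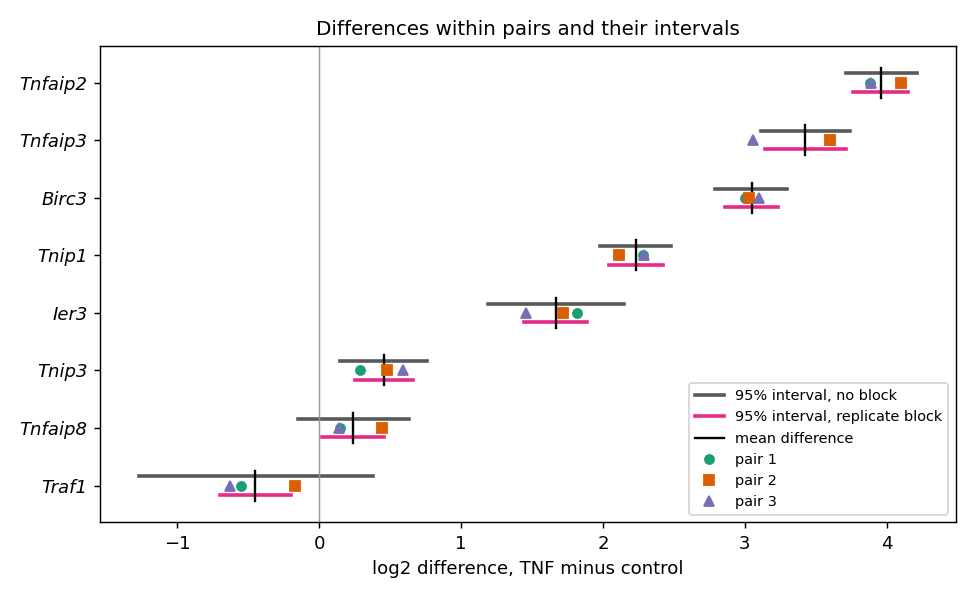
Log2 difference, TNF minus control (x axis), of each gene (y axis) in pairs 1 to 3 (coloured points), with the mean difference (black tick) and its 95% interval without a block (grey) and with the replicate block (pink). Traf1 has the widest unblocked interval, -1.27 to 0.38, and with the block -0.70 to -0.20.

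Birc3 encodes cIAP2, a ubiquitin ligase of the inhibitor of apoptosis family that works in the TNF receptor complex and protects cells from TNF-induced death. Its log2 signal was 7.30, 7.38 and 7.43 in controls 1 to 3 and 10.31, 10.41 and 10.53 with TNF. The response was almost the same size in each pair, at 3.0, 3.03 and 3.1, a range of 0.10 that was the smallest among the 8 genes. The means were 7.37 ± 0.06 and 10.42 ± 0.11 (SD, n = 3 per group), a log2 difference of 3.05 (SE 0.11, limma adjusted p = 2.03e-05), and 3.02 without the arrays numbered 3 (adjusted p = 0.00156). Its 95% interval was 6.93-fold to 9.85-fold.

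Birc2, which encodes the related ligase cIAP1 and is the next gene to Birc3 on chromosome 9, rose 2.52-fold (adjusted p = 4.83e-04), from 8.09 ± 0.11 to 9.43 ± 0.10. Of the 8 measured IAP relatives Birc2 was the only gene called, and 1 was higher and 0 lower at an unadjusted p under 0.05. Birc5 (survivin, which acts in cell division), Birc6 and Birc7 differed by -0.32, 0.02 and -0.13. Xiap, the direct caspase inhibitor, differed by -0.35 (adjusted p = 0.403) and was called lower with the replicate block (adjusted p = 0.0371). Naip2, Naip5 and Naip6, inflammasome sensors of near-identical sequence whose probes may share signal, differed by 0.23, 0.32 and 0.23.

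Ier3, also known as IEX-1, is a short-lived stress response protein that modifies cell survival. Its log2 signal was 7.2, 7.39 and 6.95 in controls 1 to 3 and 9.02, 9.11 and 8.41 with TNF. The arrays numbered 3 were the lowest of both groups, and the groups did not overlap. The means were 7.18 ± 0.22 and 8.85 ± 0.38 (SD, n = 3 per group), a log2 difference of 1.67 (SE 0.21, limma adjusted p = 0.0033). The 95% interval was 2.28-fold to 4.43-fold. Within pairs the difference was 1.82, 1.72 and 1.46, and without the arrays numbered 3 it was 1.77 (adjusted p = 0.0056). The relatives Ier2, Ier5 and Ier5l differed by -0.14, 0.22 and 0.48 and were not called, with 1 of the 3 higher at an unadjusted p under 0.05; Ier5l was called with the replicate block (adjusted p = 0.0101).

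Tnfaip2, a TNF-induced protein linked in human cells to the membrane tubes that join neighbouring cells, showed the largest increase of the 8 and ranked 26 among all genes. Its log2 signal was 6.71, 6.67 and 6.83 in controls 1 to 3 and 10.59, 10.76 and 10.72 with TNF. Each group spanned less than 0.2 units, against a gap of nearly 4 between them. The means were 6.74 ± 0.08 and 10.69 ± 0.09 (SD, n = 3 per group), with a 95% interval of 13.1-fold to 18.5-fold (limma adjusted p = 6.29e-06). The pair differences were 3.88, 4.10 and 3.89. Leaving out the arrays numbered 3 gave a log2 difference of 3.99 (limma adjusted p = 0.00119).

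**Figure D3:**
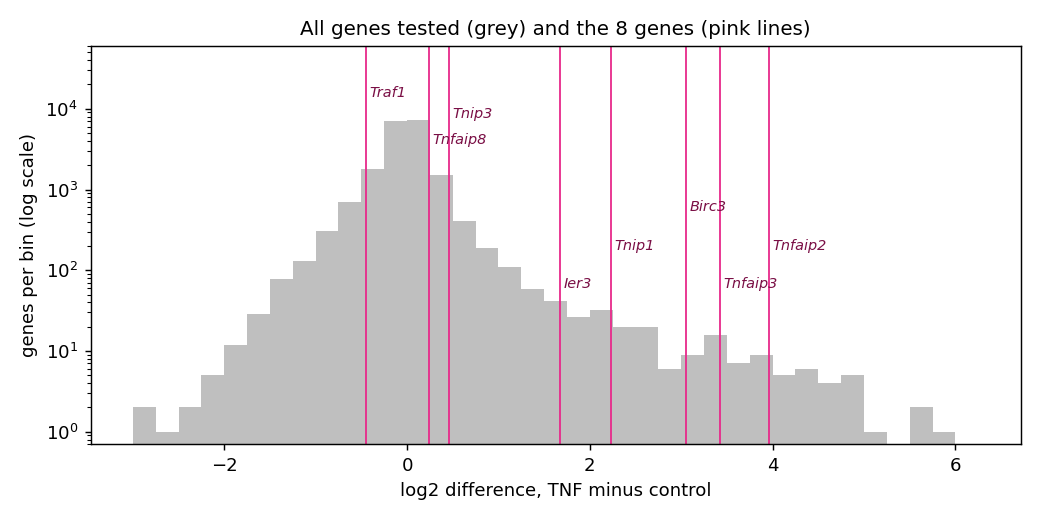
Number of genes per bin of 0.25 (y axis, log scale) by log2 difference, TNF minus control (x axis), over all 19926 genes, with the 8 genes as pink lines. Tnfaip2, Tnfaip3, Birc3, Tnip1 and Ier3 lie beyond 1.58, the 99th percentile of all genes, while Tnip3, Tnfaip8 and Traf1 lie between -0.45 and 0.46.

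Tnfaip8, which belongs to a small family that binds lipid messengers and affects cell death, was 8.74, 8.95 and 8.69 in controls 1 to 3 and 8.88, 9.38 and 8.83 with TNF. The groups overlapped, since control 2 lay above TNF arrays 1 and 3, and number 2 was the highest in both groups. The log2 difference was 0.24 (SE 0.17, n = 3 per group, limma adjusted p = 0.574), with a 95% interval of 0.90-fold to 1.55-fold. Within pairs it was 0.15, 0.44 and 0.14, and with the replicate block it was not called either (adjusted p = 0.115). The value rested most on the TNF array numbered 2, without which the difference was 0.06. Leaving out the arrays numbered 3 gave 0.29 (limma adjusted p = 0.514). A second, dimmer Tnfaip8 probe set read 6.12, 5.89 and 6.06 in controls and 6.31, 5.92 and 5.81 with TNF, a log2 difference of -0.01 (95% interval -0.39 to 0.37). The relatives Tnfaip8l1, Tnfaip8l2 and Tnfaip8l3 differed by -0.09, 0.10 and 0.27 and were not called, with none at an unadjusted p under 0.05; Tnfaip8l3 was called higher with the replicate block (adjusted p = 0.0419).

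Traf1, an adaptor that joins TRAF2 and the cIAP ligases at TNF family receptors, was the only member with a negative difference. Its log2 signal was 9.91, 8.66 and 9.77 in controls 1 to 3 and 9.36, 8.5 and 9.15 with TNF. The groups overlapped, because number 2 was far below the others in both, and each TNF array lay below the control of its own number. The range among the controls, 1.25, was larger than any pair difference, which were -0.55, -0.17 and -0.63. The log2 difference was -0.45 (SE 0.36, n = 3 per group, limma adjusted p = 0.643), with a 95% interval of 0.415-fold to 1.3-fold. With the replicate block the SE was 0.11 and Traf1 was called lower (adjusted p = 0.0237), but not with the number as a random effect (adjusted p = 0.099). Without the arrays numbered 3 the difference was -0.36 in both fits, and over the fits without 1 array it ran from -0.84, without control 2, to -0.19, without TNF 2.

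The genes closest to Traf1 in pattern over the 6 arrays, among 4339 genes with an SD of at least 0.3, were Wdr66 (Pearson r = 0.993), Tekt1, a tektin of the ciliary axoneme (r = 0.992), and Cfap46, a cilia and flagella associated protein (r = 0.989). These correlations describe 6 arrays that share their normalization and differ in treatment and number. Tekt1 was 7.92, 6.83 and 7.83 in controls 1 to 3 and 7.48, 6.76 and 7.14 with TNF, so its number 2 was also lowest in both groups. A list of 22 cilium genes of the kind ependymal cells express, added after these values were seen, had mean log2 signals of 8.03, 7.18 and 7.66 in controls and 7.43, 6.93 and 7.15 with TNF. The signal summed over the list ran from 4157 to 8482 in controls and from 3664 to 5374 with TNF.

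Of these 22 cilium genes, 13 were lowest in number 2 in both groups, as Traf1 was, against 16.6% of all genes. The low value in number 2 was not particular to cilium genes, since the mean of the microglia markers was also lowest there. It was 6.42 in control 2 and 6.52 in TNF 2. The rest of the pattern differed. The microglia mean was highest in number 3 in both groups, while Traf1 and the cilium mean were highest in number 1. Of the cilium genes 7 had a mean above the median gene. None of the 22 was called without a block in limma, where 3.33% of all genes were called lower and 3.87% higher. At an unadjusted p under 0.05, 6 of the 22 were lower and 0 higher. With the replicate block 13 of the 22 were called lower and 0 higher, where that fit called 11.8% of all genes lower and 9.73% higher. Their correlation with Traf1 over the 6 arrays had a median of 0.83 and ran from -0.13 (Spag6) to 0.96 (Cfap44). Foxj1, the transcription factor that starts motile cilium formation, was 10.36, 9.46 and 10.11 in controls 1 to 3, with a log2 difference of 0.03. The part of such cells in the Traf1 values was not tested.

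**Figure D4:**
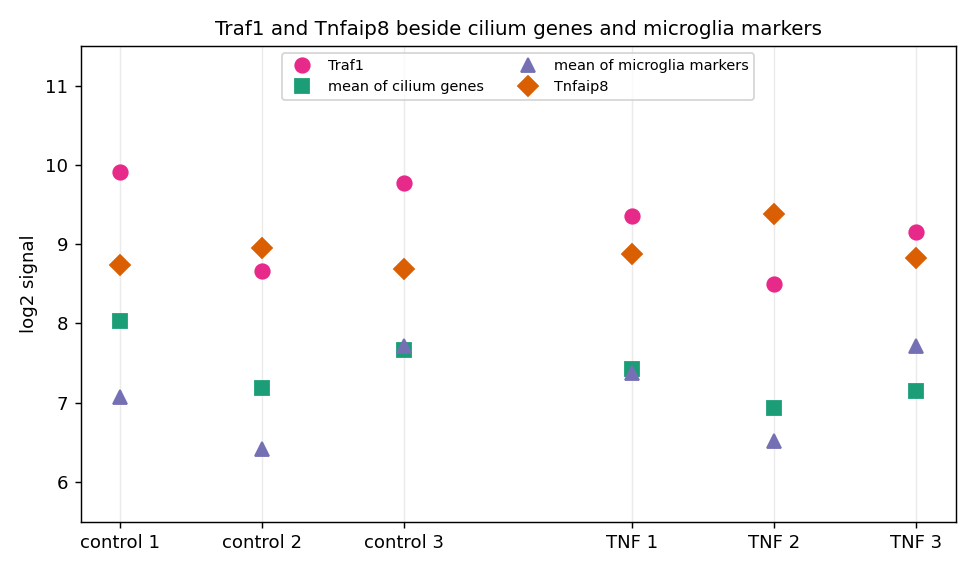
Log2 signal (y axis) of Traf1 and Tnfaip8 and the mean log2 signal of 22 cilium genes and 19 microglia markers on each of the 6 arrays (x axis). In both groups Traf1, the cilium genes and the microglia markers are lowest in number 2, where Tnfaip8 is highest.

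The signal of microglia markers also varied between numbers. The mean of 19 measured microglia markers was 7.07, 6.42 and 7.72 in controls 1 to 3 and 7.37, 6.52 and 7.72 with TNF, and the summed signal ran from 2083 to 5684 and from 2329 to 5744. Of these markers 7 lay above the median gene. Cx3cr1, P2ry12 and Tmem119 had control means of 7.60, 6.06 and 6.69, on a scale that has no 0. Over the list, control means ran from 4.34 (Gpr34) to 9.17 (Sall1). The range among the controls ran from 0.08 (Gpr34) to 3.24 (Laptm5, at 7.93, 6.29 and 9.53 in controls 1 to 3). No microglia marker was called in limma, with 1 higher and 0 lower at an unadjusted p under 0.05, and 3 (Itgam, C1qb and Cd68) were higher with the replicate block. Other lists covered endothelial cells, fibroblasts and mural cells, the oligodendrocyte lineage and neurons. In these, 2 of 10, 1 of 12, 2 of 10 and 1 of 10 measured genes were called lower and none higher. Over all genes 3.33% were called lower and 3.87% higher. Those called were Kdr and Ocln, Acta2, Olig1 and Olig2, and Map2, with differences from -1.22 (Map2) to -0.60 (Olig2). The median differences of the lists were -0.01, -0.03, -0.02 and -0.04. The part of other cell types in the members' values was not tested.

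For the 5 members that rose, many genes had a similar pattern, since the step between groups dominates it: from 227 genes for Ier3 to 434 for Tnfaip2 had r above 0.95 over the 6 arrays. The closest to Tnfaip3 were Gas7, Psmb8, an immunoproteasome subunit, and Nfkbia, the NF-kB inhibitor IkB alpha (r = 0.999 each). The closest to Tnfaip2 were Uba7, Casp4 and Psmb8, to Birc3 Flt3l, Psmb10 and Cd47, to Tnip1 Slc12a7, Nfkbie and Bhlhe40, and to Ier3 Gm12592, Plekha2 and Dlg2. Tnip3 was closest to Slc44a3, Tnfrsf14 and Hvcn1 (r = 0.993 to 0.995), with 49 genes above 0.95. Tnfaip8 was closest to Dll1, a Notch ligand (r = 0.992), Gm9805 and Kcnq5, with 18 genes above 0.95. Between members, Tnfaip8 and Traf1 ran most opposed (r = -0.84).

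The protein relatives of the 8 genes were grouped in family lists. Of 30 measured genes in these lists, Birc2 and Traf2 were called higher, 6.67% against 3.87% of all genes. None was called lower, against 3.33% of all genes. With the replicate block 6 were higher, 20% against 9.73% of all genes, and 2 were lower, where 11.8% of all genes were. Traf2, the adaptor that Traf1 binds and that carries the cIAP ligases to the receptor, went from 8.19 ± 0.07 to 9.17 ± 0.05 (SD, n = 3 per group), a 1.97-fold rise with adjusted p = 0.00133 in limma. Traf4, Traf5, Traf6 and Traf7 differed by 0.19, 0.31, 0.20 and 0.33 and were not called, but Traf5 (adjusted p = 0.0314) and Traf7 (adjusted p = 0.0246) were called higher with the replicate block. Tnip2, the remaining ABIN gene, differed by 0.22 (adjusted p = 0.34). The 8 deubiquitinases of the OTU type set beside Tnfaip3 (Otud7a, Otud7b, Zranb1, Otud1, Otud3, Otud4, Otud5 and Otud6b) differed by -0.47 to 0.25, and none was called, with 0 higher and 1 lower at an unadjusted p under 0.05. Otud6b, the lowest, was called with the replicate block (adjusted p = 0.0133). Tnfaip1 and Tnfaip6, which share only the name, differed by -0.14 and 0.20.

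**Figure D5:**
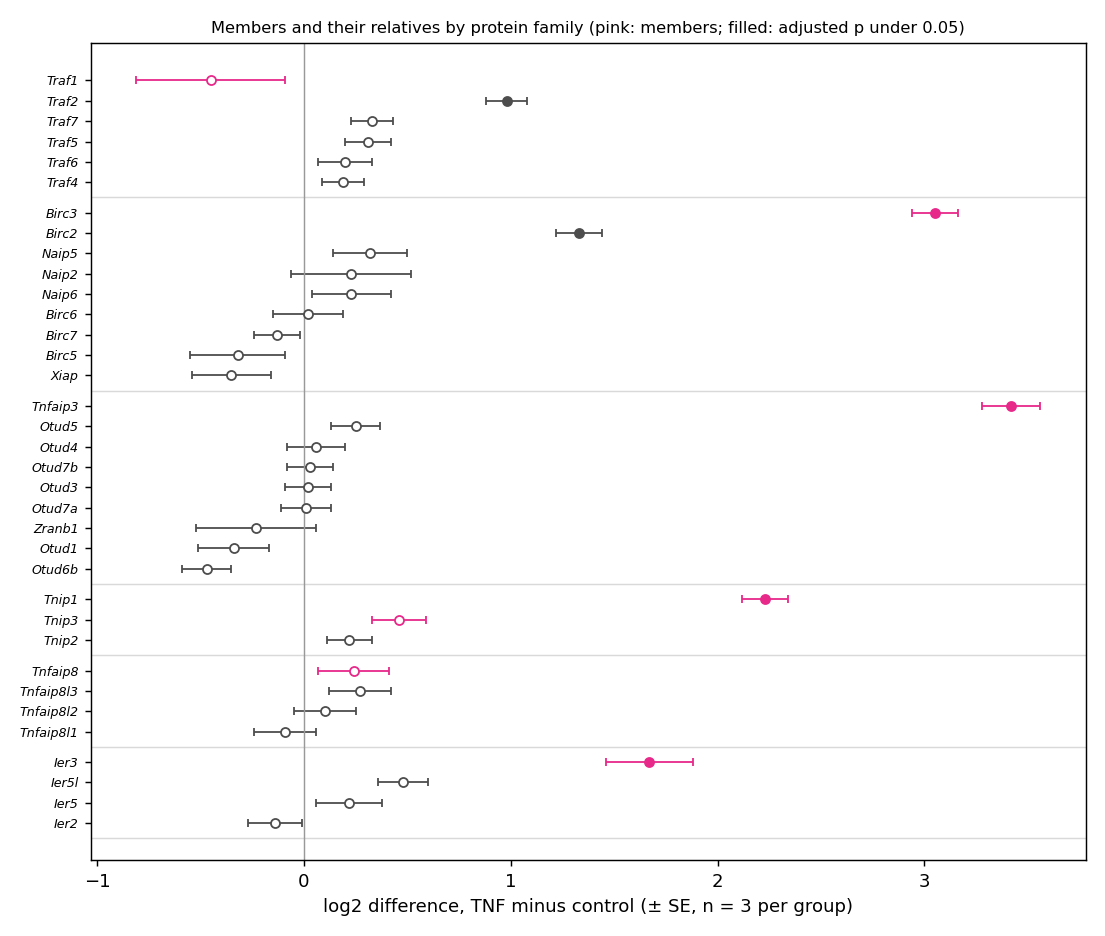
Log2 difference, TNF minus control, with its SE (x axis; n = 3 per group), for 7 of the members (pink; Tnfaip2, which has no list of relatives here and was called, is not drawn) and their relatives (grey) by protein family (y axis). Of the genes drawn, Birc3, Birc2, Traf2, Tnfaip3, Tnip1 and Ier3 passed an adjusted p under 0.05 and are filled.

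The partners of these genes on the receptor route were grouped in 5 lists. These lists of receptors and adaptors, ubiquitin enzymes, kinases, NF-kB factors and death regulators were written with earlier results of these data known. Of 58 measured genes 23 (39.7%) were higher, Birc2 and Traf2 among them, and 1 lower, with a median difference of 0.37. Over all genes 3.87% were higher and 3.33% lower. With the replicate block 31 (53.4%) were higher and 3 lower, where that fit called 9.73% of all genes higher and 11.8% lower. Tnfrsf1b, the second TNF receptor, rose 1.80-fold (limma adjusted p = 0.0142), but it missed the threshold when control 1 (adjusted p = 0.0608), TNF 2 (adjusted p = 0.0542) or the arrays numbered 3 (adjusted p = 0.103) were left out. Tnfrsf1a, the first, differed by 0.20 and Tnf by 0.30, neither of them called.

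Among receptor adaptors and death proteins 4 of 10 rose, Mlkl, Traf2, Tnfrsf1b and Cflar. Mlkl, the pore-forming executor of necroptosis, rose 13.0-fold. Cflar, which encodes the caspase-8 inhibitor c-FLIP, rose 1.62-fold (adjusted p = 0.0265), but missed the threshold in 5 of the 6 fits that left 1 array out (up to 0.102, without TNF 2). Among the ubiquitin enzymes 2 of 13 rose, Birc2 and Rnf31, the catalytic subunit of the linear ubiquitin ligase LUBAC (2.13-fold). The A20 partners Tax1bp1, Itch and Rnf11 differed by -0.08, -0.15 and -0.04, and the deubiquitinases Cyld and Otulin by -0.13 and -0.06, and none of these 5 was called.

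Of the TAK1 and IKK kinase list 3 of 11 rose, Ikbke 2.80-fold, Map3k8 1.89-fold and Tbk1 1.5-fold. Tbk1 missed the threshold in 5 of the 6 fits that left 1 array out (up to 0.118, without TNF 2) and without the arrays numbered 3. In the list of NF-kB subunits and inhibitors, which also held Zc3h12a, 10 of 11 rose. Nfkbie at 19.7-fold and Nfkbia at 10.2-fold led them, beside the 10.7-fold of Tnfaip3. Of these 10, Rela missed the threshold in 3 of the 6 fits that left 1 array out and without the arrays numbered 3 (up to 0.0762), and Zc3h12a without control 1 (0.0528). In the list of death regulators, Bid rose 4.22-fold, Sod2, the mitochondrial superoxide dismutase, 2.31-fold, Gadd45b 2.01-fold and Bak1 1.68-fold. Bcl2, the founding survival protein of its family, fell by 0.74 on the log2 scale (adjusted p = 0.0202). The Bcl2 call was lost without control 1, 2 or 3 (up to 0.0873, without control 1) and without the arrays numbered 3, the Bak1 call without control 1 (0.0541) and without the arrays numbered 3, and the Gadd45b call in 4 of the 6 fits that left 1 array out and without the arrays numbered 3 (up to 0.146).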

How the data were processed

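The authors deposited log2 signals of 35544 probe sets on 6 arrays; per the submitters' processing notes these were made with RMA, which corrects background, normalizes quantiles and summarises probes, and limma, whose versions are not stated there. The log base was read from the values (2.04 to 14.37). RMA shrinks the folds of dim genes, and genes were not filtered on detection. Probe sets with 1 gene symbol in the platform annotation (21777) were kept, and the one with the highest mean per gene, leaving 19926 genes. Of these probe sets 21686 matched RefSeq by Entrez number. TNF was compared with control in limma 3.58.1 (R 4.3.3; lmFit, eBayes, two-sided, no block), adjusted over all genes. Deviations from group means correlated at 0.55, 0.65 and 0.75 between arrays of the same number, so the numbers were taken as pairs and a fit with the number as a block was added; the pairing rests on the values, though same-numbered samples also share a label prefix whose meaning is not stated. Unblocked intervals are limma's, at 95%. The number of arrays limits the precision. The members and lists were chosen with earlier results of these data known. Named genes were the 8 members, family relatives, up to 6 called genes per list, a few receptor genes, and the 3 genes closest in pattern to each member; others named were chosen after their values were seen. Ripk1, Chuk, Nfkb1, Optn, Traf3, Naip1, Bax, Bcl2a1a, Bcl2a1b and Bcl2a1d were not analysed here, nor were protein sequences. Tables and plots were made in Python 3.11.15 (numpy 2.4.6, matplotlib 3.10.9, pandas 2.3.3).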

Additional observations from a re-analysis of the deposited data

How the results depend on the processing

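The 5 members that rose kept their direction and their call under all alternatives run, with adjusted p at most 0.0193 (Ier3, without control 1), and members called higher numbered 5 or 6. Members called lower were 0 except with the replicate block, where there was 1, Traf1; that block leaves the differences as they are and takes the spread between numbers out of the error. No difference of a member changed sign under any alternative. The 2 filters on dim genes left Tnip3 untested. Over all genes, 771 were higher and 663 lower; with the replicate block 1938 and 2351, with the number as a random effect 2231 and 2471, and with the block but without replicate 3, an alternative chosen after seeing the data, 1250 and 1451. At an adjusted p under 0.01 there were 386 and 195, with a difference of at least 1 there were 365 and 200, and of all probe sets 436 were lower. Without 1 array or without replicate 3, from 401 to 669 were higher and from 231 to 455 lower. Of 84 measured genes in the pathway and family lists 23 were higher and 1 lower. The block gave 35 and 4, the random effect 37 and 5, and a difference of at least 1 gave 15 and 0. There were 2 lower after quantile normalization, with either filter, with trend and robust variance, with array weights, and with the block but without replicate 3. There were 0 lower over all probe sets and at an adjusted p under 0.01, and 0 or 1 without 1 array or without replicate 3. Fewer arrays or fewer residual degrees of freedom limit the fits without arrays; the cause of the other shifts was not tested.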
